A study of Mus musculus with 21 samples.

Results

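The 8 genes described here encode proteins that pump ions towards the blastocoel, let water pass into it or seal the epithelium around it. They are Atp1b1 and Atp1b3 (subunits of the Na,K-ATPase), Aqp3 and Aqp9 (aquaporins), Tjp1 and F11r (the junction proteins ZO-1 and JAM-A), and Cldn4 and Cldn6 (claudins). They were chosen by name, and each transcript of the study's merged catalogue was given to the mouse GENCODE vM21 gene (build mm10) with which it shared most exonic bases on the same strand. A merged transcript was found for 7 of the 8 genes, against 10917 annotated genes in all, and all 7 were among the 10000 genes that passed the filter on low values. They held 15 merged transcripts, and 14 of the 15 passed the filter.

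The study sequenced amplified cDNA from sperm of DBA/2J males, from MII oocytes of C57/BL6J females and from embryos of that cross at the 1-cell, 2-cell, 4-cell, 8-cell and blastocyst stages. The females were 3 to 5 weeks old and were superovulated with 7.5 IU of pregnant mare serum gonadotropin and 7.5 IU of human chorionic gonadotropin (hCG). Oocytes were taken 20 h after hCG, and embryos at 24 to 26 h (1-cell), 46 to 48 h (2-cell), 54 to 58 h (4-cell), 68 to 70 h (8-cell) and 94 to 96 h (blastocyst) after culture in KSOM medium. Each of the 7 stages has 1 pool of PacBio long reads, made from both batches of pooled cells, and 2 Illumina libraries, which gave the expression values. No treatment was compared. The groups differ in stage and, as the sperm, oocytes and embryos carry DBA/2J, C57/BL6J and crossed genomes, in strain, which cannot be told apart from stage where oocytes are compared with embryos. Levels are TPM, a share of each library's transcripts corrected for transcript length. The libraries hold RNA from whole embryos, so fewer cells of a type and less RNA per cell cannot be told apart.

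The blastocoel is the fluid-filled cavity of the blastocyst. The outer cells, the trophectoderm, form a polarised epithelium. Its Na,K-ATPase moves sodium towards the cavity, and water follows through aquaporins. Tight junctions close the space between the cells. Claudins form the strands of these junctions, JAM-A helps to place them, and ZO-1 links them to actin inside the cell.

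The stage labels were read against marker genes. Summed TPM of 5 sperm markers was 17159 and 21152 in the sperm libraries and at most 17.1 in every other library. Summed TPM of 5 trophectoderm markers was 10122 and 37431 in the blastocyst libraries, against 350.1 and 799.3 in the 8-cell libraries. The 2-cell libraries stood apart from each other. Their gene levels correlated with a Pearson r of 0.739, the lowest of the 7 stages, against 0.983 for the 4-cell libraries. Markers of the 2-cell activation burst summed to 20.2 TPM in replicate 1 and 332.1 in replicate 2, and oocyte markers to 96.2 and 1175. The sum in replicate 1 therefore lay below those of the 4-cell libraries (32.9 and 36.8) on the 2-cell list, but its genes went both ways. Tdpoz4 and Zfp352 were lower in replicate 1 than in both 4-cell libraries. Zscan4d and Usp17lc were higher than in both, and Zscan4c lay between them. The sperm libraries held RNA of 4 of 6 epididymal or somatic markers, with sums of 6128 and 896.7 TPM. Their part in the sperm levels given below was not tested.

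The 12 libraries of oocytes and embryos were compared by limma on log2(TPM + 1), and a gene is said to rise or fall only at an adjusted p under 0.05 over all 10000 genes. A log2 change is on this log2(TPM + 1) scale, which understates the change of low genes, and its error is a standard error (SE). From the oocyte to the blastocyst Aqp3, F11r, Cldn4 and Cldn6 rose, 4 of the 7 genes, where 35.4% of all genes tested rose. None of the 7 fell, where 18% of all genes did, and none had an unadjusted p under 0.05 in that direction. The median change of the 7 was 4.79, against 0.82 over all genes. Between the 1-cell and the 2-cell stage Aqp3, F11r and Cldn6 rose, 3 of the 7, where 26.1% of all genes rose. Aqp3 alone rose from the 4-cell to the 8-cell stage, where 0.77% of all genes did. Cldn4 alone rose from the 8-cell stage to the blastocyst, where 1.51% of all genes did. No gene of the 7 passed limma's test from oocyte to 1-cell (0 with an unadjusted p under 0.05, where 0.33% of all genes rose and 0.05% fell). None passed from 2-cell to 4-cell either (2 rises with an unadjusted p under 0.05, Aqp9 and Cldn4, where 1.58% rose and 1.82% fell). No fall passed between any adjacent stages, where 6.2% (1-cell to 2-cell), 0.9% (4-cell to 8-cell) and 1.49% (8-cell to blastocyst) of all genes fell, and no gene of the 7 reached an unadjusted p under 0.05 for a fall. Quantile normalization moved the median change of all genes from 0.72 to -0.12 between the 1-cell and 2-cell stages, and the share of rises among the calls from 80.8% to 47.5%. That share went from 86.8% to 55.6% between oocyte and 1-cell, from 66.3% to 50.2% between oocyte and blastocyst, from 46.5% to 56.7% between 2-cell and 4-cell, and from 46.1% to 69.3% between 4-cell and 8-cell. The 1-cell to 2-cell rises of F11r (4.93) and Cldn6 (3.85) passed under it too.

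**Figure D1:**
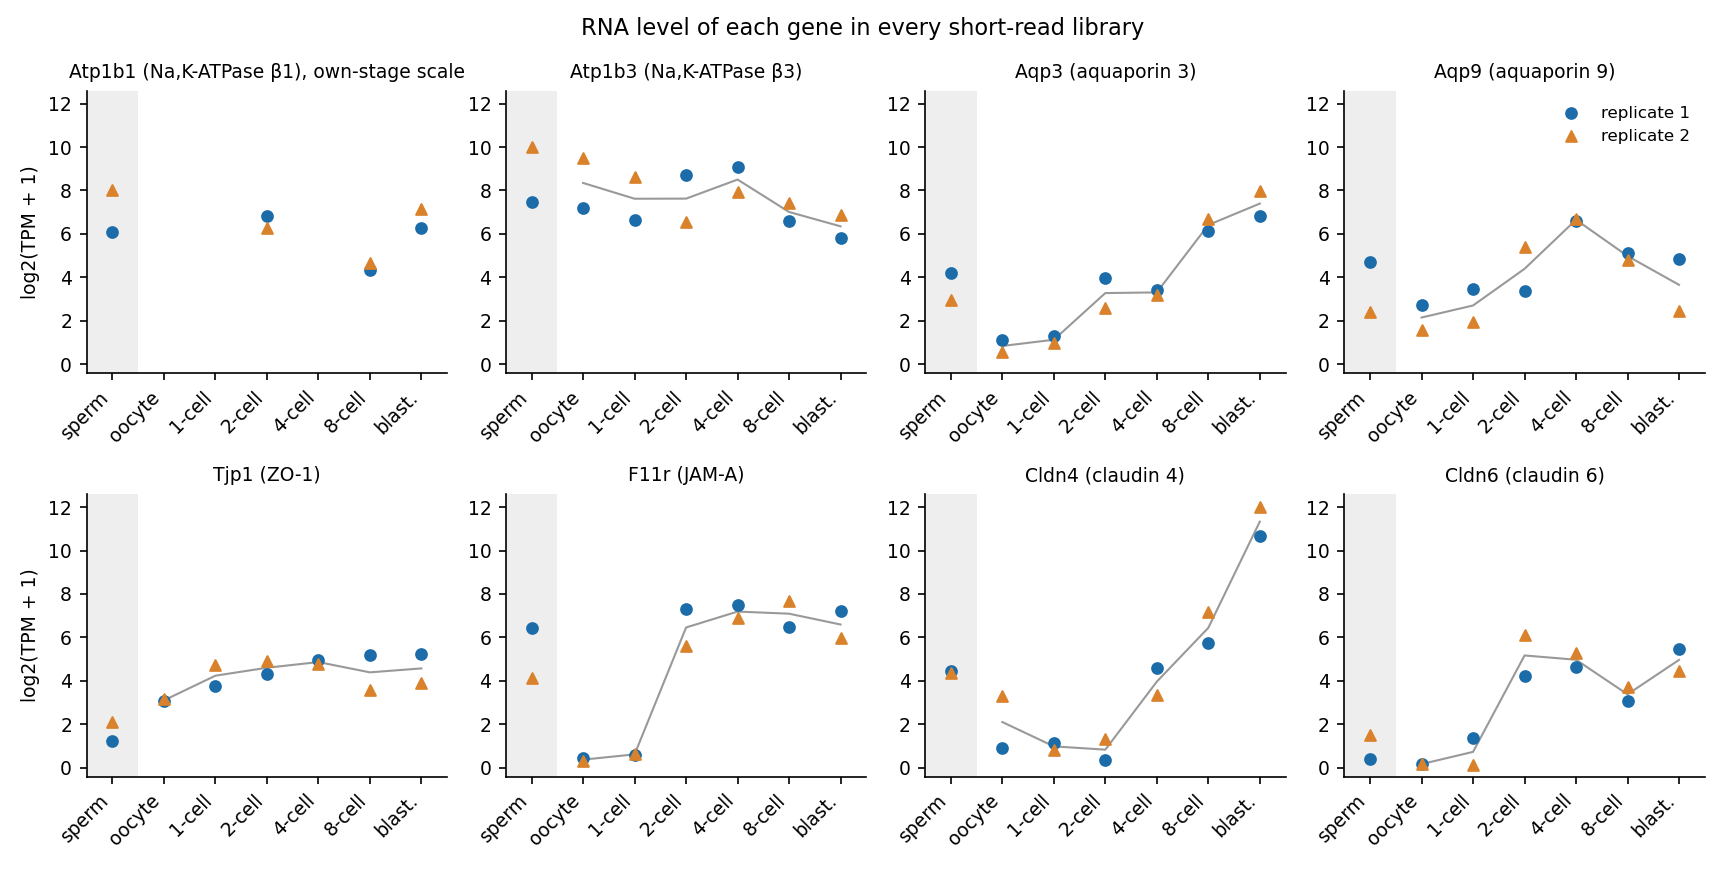
Level of each of the 8 genes in every short-read library, as log2(TPM + 1) by stage. Circles are replicate 1, triangles replicate 2, the grey line joins the means of the 2 replicates from oocyte to blastocyst, and the grey band marks sperm. Atp1b1 is on the scale of each stage's own transcripts and has values at 4 stages. Cldn4 reaches 1626 and 4050 TPM at the blastocyst, while Tjp1 stays between 7.31 and 37.1 TPM from the oocyte on.

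Atp1b1 encodes the β1 subunit of the Na,K-ATPase. The gene (ENSMUSG00000026576.12) lies at chr1:164437109-164458355 on the minus strand. It had no transcript in the merged catalogue and so no value in the tests above. The long reads themselves did hold it. A transcript with 6 exons and the exact introns of an annotated Atp1b1 transcript was present in 4 of the 7 pools, those of sperm, 2-cell, 8-cell and blastocyst. Among 9135 genes with a spliced long-read transcript in at least 1 pool, 24 (0.263%) had no merged transcript. Among the 3283 genes seen in at least 4 pools, 4 had none, and Atp1b1 is 1 of them. A merged plus-strand transcript of the neighbouring gene Nme7 shares 187 bases with the exons of Atp1b1 on the opposite strand. Whether that overlap bears on the missing transcript was not tested.

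Atp1b1 was therefore read from the second set of values, in which each library was quantified against the long-read transcripts of its own stage. On this own-stage scale Atp1b1 stood at 67.5 and 255.1 TPM in sperm, 111.8 and 76.4 in 2-cell embryos, 19.4 and 24.7 in 8-cell embryos, and 75.2 and 142.7 in the blastocyst. Both blastocyst libraries lay above both 8-cell libraries. Each stage has its own catalogue, so these values were not tested between stages. A share within each library does not depend on the library's total, but it still depends on the transcript models of that stage. The 6-exon Atp1b1 model was 1311 bases long at the 2-cell stage and 2232 in the blastocyst. Atp1b3 had 3 models at the 8-cell stage and 1 in the blastocyst. The Atp1b1 values include 1-exon fragments, with 6.57 TPM in 8-cell replicate 1 and 4.40 in blastocyst replicate 1. Of the summed TPM of Atp1b1 and Atp1b3, Atp1b1 made up 18.6% and 13.7% in 8-cell embryos but 63.9% and 60.0% in the blastocyst. The shares were 18.4% and 43.9% for 2-cell embryos and 26.7% and 18.3% for sperm. Both blastocyst libraries thus lay above all 6 others that had a value. The part of the differing models in these shares was not tested.

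Atp1b3 encodes the β3 subunit. The gene (ENSMUSG00000032412.8) lies at chr9:96332655-96364442 on the minus strand. It was abundant at every stage, and its replicates lay far apart. Atp1b3 had 147.7 and 711.8 TPM in oocytes, 98.8 and 387.1 in 1-cell embryos, 420.7 and 91.5 in 2-cell embryos, 537.2 and 243.3 in 4-cell embryos, 96.8 and 169.3 in 8-cell embryos, and 56.0 and 115.8 in the blastocyst. Sperm had 174.9 and 1013 TPM. The ranges of all neighbouring stages in the order of their means overlapped. The change from oocyte to blastocyst was -2.00 ± 1.00 (SE), with an adjusted p of 0.108, and every blastocyst library lay below every oocyte library. Leaving out oocyte replicate 1 gave -3.13 and an adjusted p of 0.0422. From the 4-cell to the 8-cell stage the change was -1.49 (adjusted p = 0.532), with all 4 pairs of libraries lower at the 8-cell stage. With a spread set by stage, the 4-cell to 8-cell change had an adjusted p of 0.0239, and with only those 4 libraries in the fit 0.0413. In these fits 2821 of 10000 and 2475 of 9176 genes fell.

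Most Atp1b3 RNA was TCONS_00021580, which has the 7 exons of the annotated coding transcript and held between 76.7% and 99.3% of the gene's TPM in the 14 libraries. A second transcript, TCONS_00021579, lacks the third exon. That exon lies at chr9:96343268-96343375, is 108 bases long, a multiple of 3, and is wholly coding. It is shown because its absence is what sets TCONS_00021579 apart.

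Atp1b3 exon 3 of 7 (GENCODE vM21, mm10, minus strand): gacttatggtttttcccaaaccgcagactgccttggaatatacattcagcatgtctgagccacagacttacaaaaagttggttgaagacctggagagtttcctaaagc

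The exon-skipping transcript held 1.26% and 0.658% of Atp1b3 TPM in oocytes and 1.36% and 1.13% in 1-cell embryos. It held 12.4% and 10.9% in 2-cell embryos, 13.1% and 14.3% in 4-cell embryos, 4.51% and 8.76% in 8-cell embryos, and 11.4% and 8.21% in the blastocyst. Every library from the 2-cell stage on lay above every oocyte and 1-cell library. The level of TCONS_00021579 rose by 2.76 ± 0.90 from the 1-cell to the 2-cell stage (adjusted p = 0.0381 over 20250 transcripts, of which 22.9% rose). This call passed in 8 of the 20 fits run, with values of 1.50 to 3.90, and was lost among others under quantile normalization (adjusted p = 0.344), without either 1-cell, 4-cell or blastocyst library and without 2-cell replicate 1 (adjusted p = 0.185).

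Aqp3 encodes an aquaglyceroporin, a channel for water and glycerol. The gene (ENSMUSG00000028435.8) lies at chr4:41092722-41098183 on the minus strand and had 1 merged transcript, an exact match of the annotated coding transcript with 6 exons. Aqp3 was low in oocytes (1.21 and 0.466 TPM) and in zygotes (1.46 and 0.953). It had 14.6 and 5.04 TPM at the 2-cell stage, 9.71 and 8.19 in 4-cell embryos, 68.6 and 103.3 in 8-cell embryos, and 113.1 and 247.9 in the blastocyst. Sperm had 17.5 and 6.69 TPM. The blastocyst libraries did not overlap those of the 8-cell stage, nor did the latter overlap any lower stage. Aqp3 rose by 6.55 ± 0.71 from oocyte to blastocyst (adjusted p = 1.03e-05), and all 21 fits called it.

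The single steps of Aqp3 were less firm. The rise from the 1-cell to the 2-cell stage was 2.15 ± 0.71 (adjusted p = 0.0332). It was lost when either 1-cell library, 2-cell replicate 1, either 4-cell library or either 8-cell library was left out (values of 1.46 to 2.31), under quantile normalization (0.79, adjusted p = 0.498), with the replicate number as a block (adjusted p = 0.0514), with only those 4 libraries (0.118) and with a spread set by stage (0.16). The rise from the 4-cell to the 8-cell stage was 3.10 ± 0.71 (adjusted p = 0.0433). It was lost when either library of the oocyte, 1-cell, 4-cell or 8-cell stage was left out (values of 2.81 to 3.39) with the replicate block (adjusted p = 0.0837), with a pseudocount of 0.1 (0.0577) and with no filter on low values (0.0580). With a spread set by stage, the 4-cell to 8-cell rise passed, in a fit where 1100 of 10000 genes rose. From the 8-cell stage to the blastocyst the change was 0.98 ± 0.71 (adjusted p = 0.623), with all 4 pairs of libraries higher in the blastocyst.

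Aqp9 encodes a channel that also passes glycerol and other small neutral solutes. The gene (ENSMUSG00000032204.13) lies at chr9:71110659-71168682 on the minus strand. It peaked earlier than Aqp3. Aqp9 had 5.70 and 1.96 TPM in oocytes, 10.2 and 2.83 in 1-cell embryos, 9.54 and 41.1 in 2-cell embryos, 95.8 and 103.6 in 4-cell embryos, 34.4 and 27.3 in 8-cell embryos, and 28.1 and 4.49 in the blastocyst. The 4-cell libraries lay above all others, and the other neighbours in the order of levels overlapped. Sperm had 25.0 and 4.24 TPM. No step of the gene's total passed. The 2-cell to 4-cell change was 2.26 ± 0.92 (adjusted p = 0.154), or 3.25 (adjusted p = 0.0381) without 2-cell replicate 2. The 1-cell to 2-cell change was 1.69 ± 0.92 (adjusted p = 0.179), or 2.69 (adjusted p = 0.0446) without 2-cell replicate 1. The oocyte to blastocyst change was 1.50 ± 0.92 (adjusted p = 0.185), or 2.71 (adjusted p = 0.0452) without blastocyst replicate 2. The 4-cell to 8-cell change was -1.67 ± 0.92 (adjusted p = 0.420) and had an adjusted p of 0.00264 with a spread set by stage, where 2821 of 10000 genes fell.

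The gene's total hides a shift in the shares of its transcripts. Of the 3 merged transcripts of Aqp9, TCONS_00021479 starts at a first exon at chr9:71146927-71147087 that is in no annotated transcript. It lacks the exon with the annotated start codon and covers 774 coding bases. TCONS_00021480 holds that exon (chr9:71162973-71163146) and covers 885 coding bases, with its first base 21 bases upstream of the nearest annotated start. It has 7 exons, 5 of its 6 introns are annotated, and it matches no annotated transcript exactly. The coding part of the start-codon exon is shown because it is what separates the transcripts, with the start codon in capitals.

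Aqp9 start-codon exon, coding part, chr9:71162973-71163083 (GENCODE vM21, mm10, minus strand): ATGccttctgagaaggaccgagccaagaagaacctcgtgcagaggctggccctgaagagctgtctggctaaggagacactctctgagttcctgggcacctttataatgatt

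**Figure D2:**
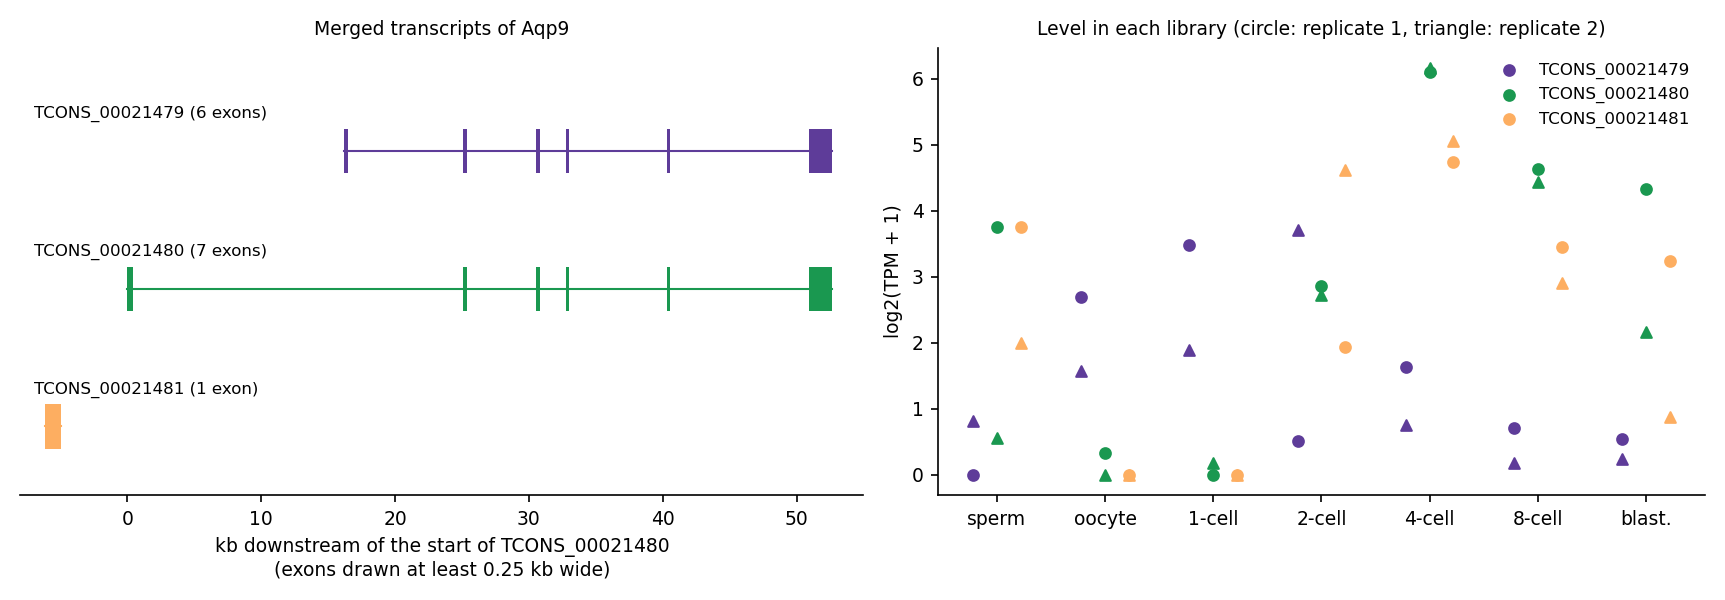
Left, exons of the 3 merged transcripts of Aqp9 by distance in kb from the first base of TCONS_00021480, whose first and second exons are too close to be drawn apart. Right, log2(TPM + 1) of each transcript in each library, with circles for replicate 1 and triangles for replicate 2. TCONS_00021479 (purple) is the main form in oocytes and at the 1-cell stage, and TCONS_00021480 (green) from the 4-cell stage on.

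TCONS_00021479 held 95.5% and 100% of Aqp9 TPM in oocytes and 100% and 95.4% in 1-cell embryos. It held 4.42% and 29.3% in 2-cell embryos and at most 3.99% in every library from the 4-cell stage on. TCONS_00021480 held 65.7% and 13.6% in 2-cell embryos and between 68.1% and 77.4% in the 6 later libraries. The shares of the 2 forms therefore did not overlap between oocyte and 1-cell libraries on one side and 4-cell to blastocyst libraries on the other, and the 2-cell libraries disagreed. In level, TCONS_00021480 went from 0.256 and 0 TPM in oocytes and 0 and 0.130 in 1-cell embryos to 6.27 and 5.60 in 2-cell embryos and 67.9 and 70.5 in 4-cell embryos. It rose by 2.70 ± 0.73 from the 1-cell to the 2-cell stage (adjusted p = 0.0173), by 3.34 ± 0.73 from the 2-cell to the 4-cell stage (adjusted p = 0.0398, where 1.46% of all transcripts rose), and by 3.08 ± 0.73 from oocyte to blastocyst (adjusted p = 0.00530). The oocyte to blastocyst rise passed in all 20 fits. The 1-cell to 2-cell rise was lost without either 1-cell library (adjusted p = 0.0884 and 0.0778), under quantile normalization (1.61, adjusted p = 0.116) and with a spread set by stage. The 2-cell to 4-cell rise was lost without any one of the 1-cell, 4-cell or 8-cell libraries, with adjusted p up to 0.300, with the replicate block (adjusted p = 0.0626), with a pseudocount of 0.1 (0.114), with only those 4 libraries (0.233) and with a spread set by stage (0.212). TCONS_00021479 itself had 5.44 and 1.96 TPM in oocytes and 0.457 and 0.179 in the blastocyst, a change of -1.74 ± 0.92 (adjusted p = 0.147). It passed as a fall in 4 of 19 fits, among them quantile normalization.

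The third transcript, TCONS_00021481, is a single exon of 1242 bases at chr9:71168242-71169483 that holds no coding base. It was listed at 0 in all 4 oocyte and 1-cell libraries and reached 25.7 and 32.4 TPM at the 4-cell stage. It rose by 3.28 ± 0.92 from the 1-cell to the 2-cell stage (adjusted p = 0.0198), lost without either 1-cell library or 2-cell replicate 2 (adjusted p of 0.0914 to 0.104). A spread set by stage ended this call too (adjusted p = 0.0636). In the long reads, the oocyte pool held only the form from the unannotated first exon, and the pools of the 4-cell, 8-cell and blastocyst stages held forms that begin near the annotated start. The 7-exon form was in the blastocyst pool alone. The sperm, 4-cell and 8-cell pools held 6-exon forms with the introns of an annotated transcript, which the merged catalogue lacks. Reads of these 6-exon forms cannot be told apart from TCONS_00021480 in its TPM. The 1-cell pool held no Aqp9 transcript, and the 2-cell pool held neither start.

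Tjp1 encodes ZO-1, the cytoplasmic scaffold of the tight junction. The gene (ENSMUSG00000030516.14) lies at chr7:65296165-65527781 on the minus strand. Tjp1 had 7.31 and 7.90 TPM in oocytes, 12.5 and 25.4 in 1-cell embryos, 18.9 and 28.8 in 2-cell embryos, 30.4 and 26.2 in 4-cell embryos, 35.6 and 11.1 in 8-cell embryos, and 37.1 and 13.9 in the blastocyst. Sperm had 1.37 and 3.37 TPM. All later libraries lay above both oocyte libraries, and the stages from 2-cell to blastocyst overlapped. The change from oocyte to blastocyst was 1.47 ± 0.76 (adjusted p = 0.115). No fit passed it in any comparison.

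The Tjp1 values rest on fragments of the gene. TCONS_00018940 is a single exon of 1396 bases at the far end of the last exon and holds no coding base. TCONS_00018941 is 500 bases long and covers the first 4 exons of a form that begins 16 bases upstream of an annotated start, with 305 coding bases. Neither spans the 240-base exon (chr7:65314093-65314332, exon 20 of 28 of an annotated form) that separates the annotated ZO-1 isoforms, so these values say nothing of that choice. The end fragment went from 4.73 and 3.99 TPM in oocytes to 27.8 and 23.9 in 4-cell embryos and 34.6 and 4.99 in the blastocyst. The start fragment had 2.58 and 3.92 TPM in oocytes, 7.99 and 17.9 in 1-cell embryos, 2.55 and 2.28 in 4-cell embryos and 2.47 and 8.94 in the blastocyst. The end fragment held 36.3% and 29.5% of the gene at the 1-cell stage and 91.6% and 91.3% in 4-cell embryos. With transcripts required to share an annotated intron, only the start fragment counted, and the change from oocyte to blastocyst was 0.49.

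F11r encodes JAM-A, an immunoglobulin-like adhesion protein of the tight junction. The gene (ENSMUSG00000038235.4) lies at chr1:171437535-171464603 on the plus strand and had 1 merged transcript, an exact match of the annotated coding transcript with 10 exons. F11r was close to absent in oocytes (0.348 and 0.254 TPM) and in zygotes (0.520 and 0.557). It had 158.1 and 47.7 TPM at the 2-cell stage, 176.8 and 119.1 in 4-cell embryos, 89.3 and 205.4 in 8-cell embryos, and 145.8 and 62.7 in the blastocyst. Every library from the 2-cell stage on lay above every oocyte and 1-cell library, and the 4 later stages overlapped one another. F11r rose by 5.84 ± 0.77 from the 1-cell to the 2-cell stage (adjusted p = 0.000185) and by 6.22 ± 0.77 from oocyte to blastocyst (adjusted p = 2.32e-05). All 21 fits called both, and the 1-cell to 2-cell value was 4.98 without 2-cell replicate 1 and 6.69 without 2-cell replicate 2. Sperm had 84.4 and 16.5 TPM. The sum of the epididymal and somatic markers was also higher in sperm replicate 1, though 1 of the 4 detected, Krt19, was lower there (134.7 against 221.7 TPM). Aqp3, Aqp9 and Cldn4 were higher in sperm replicate 1 as well, while Atp1b3, Tjp1, Cldn6 and, on the own-stage scale, Atp1b1 were lower. The part of the markers in the F11r level was not tested. The sperm pool held a long-read F11r transcript with the annotated 10 exons.

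Cldn6 encodes claudin 6, a claudin of early embryos and pluripotent cells. The gene (ENSMUSG00000023906.3) lies at chr17:23679249-23682446 on the plus strand. Cldn6 had 0.124 and 0.133 TPM in oocytes and 1.56 and 0.0824 in 1-cell embryos. It had 17.8 and 67.9 in 2-cell embryos, 24.3 and 38.1 in 4-cell embryos, 7.33 and 12.1 in 8-cell embryos, and 43.1 and 21.2 in the blastocyst. The 8-cell libraries lay below those of the 2-cell, 4-cell and blastocyst stages. Cldn6 rose by 4.44 ± 0.78 from the 1-cell to the 2-cell stage (adjusted p = 0.000867) and by 4.79 ± 0.78 from oocyte to blastocyst (adjusted p = 0.000186), in all 21 fits. The 1-cell to 2-cell value was 5.37 without 2-cell replicate 1 and 3.50 without 2-cell replicate 2. The changes from 4-cell to 8-cell (-1.59 ± 0.78, adjusted p = 0.342) and from 8-cell to blastocyst (1.58 ± 0.78, adjusted p = 0.379) each went one way in all 4 pairs. With a spread set by stage, the 4-cell to 8-cell fall had an adjusted p of 0.00233, and with only those 4 libraries 0.0184. In these fits 2821 of 10000 and 2475 of 9176 genes fell.

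Both merged Cldn6 transcripts hold the whole coding exon and differ by a 64-base untranslated exon. TCONS_00008505, with 3 exons, and TCONS_00008506, with 2, each match an annotated transcript exactly. The 3-exon form was listed at 0 in all 4 oocyte and 1-cell libraries. It held 63.8% and 38.0% of the gene at the 2-cell stage, 79.3% and 75.4% in 4-cell embryos, 100% and 86.7% in 8-cell embryos, and 84.1% and 90.3% in the blastocyst. Its share was thus higher in all 6 later libraries than in either 2-cell library. The 3-exon form rose by 4.19 ± 0.67 from the 1-cell to the 2-cell stage (adjusted p = 0.00120), in all 20 fits. The 2-exon form rose by 3.43 ± 0.88 there (adjusted p = 0.0132), lost without 1-cell replicate 2 (adjusted p = 0.119), without 2-cell replicate 2 (0.0637), with only those 4 libraries (0.0711) and with a spread set by stage (0.0930).

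Cldn4 encodes claudin 4, a claudin of tight epithelia. The gene (ENSMUSG00000047501.3) lies at chr5:134945119-134946934 on the minus strand and is annotated with 1 exon. Cldn4 had 0.874 and 8.91 TPM in oocytes, 1.23 and 0.769 in 1-cell embryos, 0.272 and 1.51 in 2-cell embryos, 23.0 and 9.19 in 4-cell embryos, 51.8 and 142.1 in 8-cell embryos, and 1626 and 4050 in the blastocyst. The blastocyst, 8-cell and 4-cell libraries did not overlap. By its mean of 2838 ± 1714 TPM (SD, n = 2) Cldn4 ranked 38 of 10917 genes in the blastocyst, against 1556 at the 8-cell stage. Sperm had 20.8 and 19.9 TPM.

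Cldn4 rose by 4.88 ± 0.89 from the 8-cell stage to the blastocyst (adjusted p = 0.00931) and by 9.22 ± 0.89 from oocyte to blastocyst (adjusted p = 5.47e-06). The second passed in all 21 fits. The first was lost without 8-cell replicate 1 (4.16, adjusted p = 0.177) and without blastocyst replicate 2 (4.23, adjusted p = 0.114). The earlier changes were 3.13 ± 0.89 from 2-cell to 4-cell (adjusted p = 0.0634) and 2.48 ± 0.89 from 4-cell to 8-cell (adjusted p = 0.186), with all 4 pairs of libraries higher later in both. The 2-cell to 4-cell rise passed without 2-cell replicate 2 (3.62, adjusted p = 0.0322) and under quantile normalization (3.02, adjusted p = 0.0369). The 4-cell to 8-cell rise passed with a spread set by stage (adjusted p = 0.000647) and with only those 4 libraries (0.0180), where 1100 of 10000 and 1007 of 9176 genes rose. Blastocyst replicate 2 had the higher Cldn4, Aqp3 and Atp1b3 (115.8 against 56.0 TPM) and also the higher sum of trophectoderm markers (37431 against 10122 TPM). Atp1b1, on the own-stage scale, was higher there too (142.7 against 75.2 TPM). Levels of Aqp9, Tjp1, F11r and Cldn6 were lower in that replicate. The part of the markers in these replicate differences was not tested.

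Nearly all Cldn4 RNA was the 1-exon TCONS_00016416, with at least 99.4% of the gene in every library. A spliced form, TCONS_00016415, which holds under 10% of the gene and was singled out after its values were seen, removes 750 bases at chr5:134945362-134946111. That intron begins 1 base after the stop codon, so the coding region is whole. It starts with GT and ends with AG, the usual letters of an intron, shown in capitals.

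Cldn4 donor, chr5:134946104-134946127 (minus strand): agcaactatgtgtaagGTgggcca
Cldn4 acceptor, chr5:134945354-134945377 (minus strand): ccccctccctcttcAGaaggaccc

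TCONS_00016415 was listed at 0 in the 10 libraries before the 8-cell stage, and had 0.288 and 0.354 TPM at the 8-cell stage and 3.94 and 8.45 in the blastocyst. It was 0.242% and 0.209% of the gene in the blastocyst. It reached 1 TPM in the blastocyst libraries alone and so passed the filter only through them, and its change is given here without a test. The 1-exon transcript rose by 4.89 ± 0.93 from the 8-cell stage to the blastocyst (adjusted p = 0.0214). This call was lost without either 8-cell library (adjusted p = 0.286 and 0.0903), without blastocyst replicate 2 (4.23, adjusted p = 0.174), with a pseudocount of 0.1 (0.0653) and with only those 4 libraries (0.0639). By limma 2 of the 14 transcripts passed as rises there, where 0.83% of all transcripts did. The spliced form is 1 of the 2, and because of the filter its call is not read as a result. None of the 14 fell by limma's test, where 1.28% did (0 with an unadjusted p under 0.05). From oocyte to blastocyst 6 of the 14 passed as rises, where 26.7% of all transcripts did, and 0 fell, where 16.3% did (0 with an unadjusted p under 0.05). The spliced form is 1 of the 6, and its call is again not read as a result. In the other comparisons, 7 of the 14 rose and 0 fell from 1-cell to 2-cell, where 22.9% of all transcripts rose and 5.11% fell. These 7 include TCONS_00021480 and TCONS_00021481 of Aqp9 and both Cldn6 transcripts. From 2-cell to 4-cell 1 rose and 0 fell (1.46% of all rose and 1.17% fell). From 4-cell to 8-cell 1 rose and 0 fell (0.681% rose and 2.44% fell), and from oocyte to 1-cell 0 rose or fell (1.92% rose and 0.084% fell). An unadjusted p under 0.05 for a fall was reached by 4 of the 14 from 4-cell to 8-cell and by 0 in the other comparisons.

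**Figure D3:**
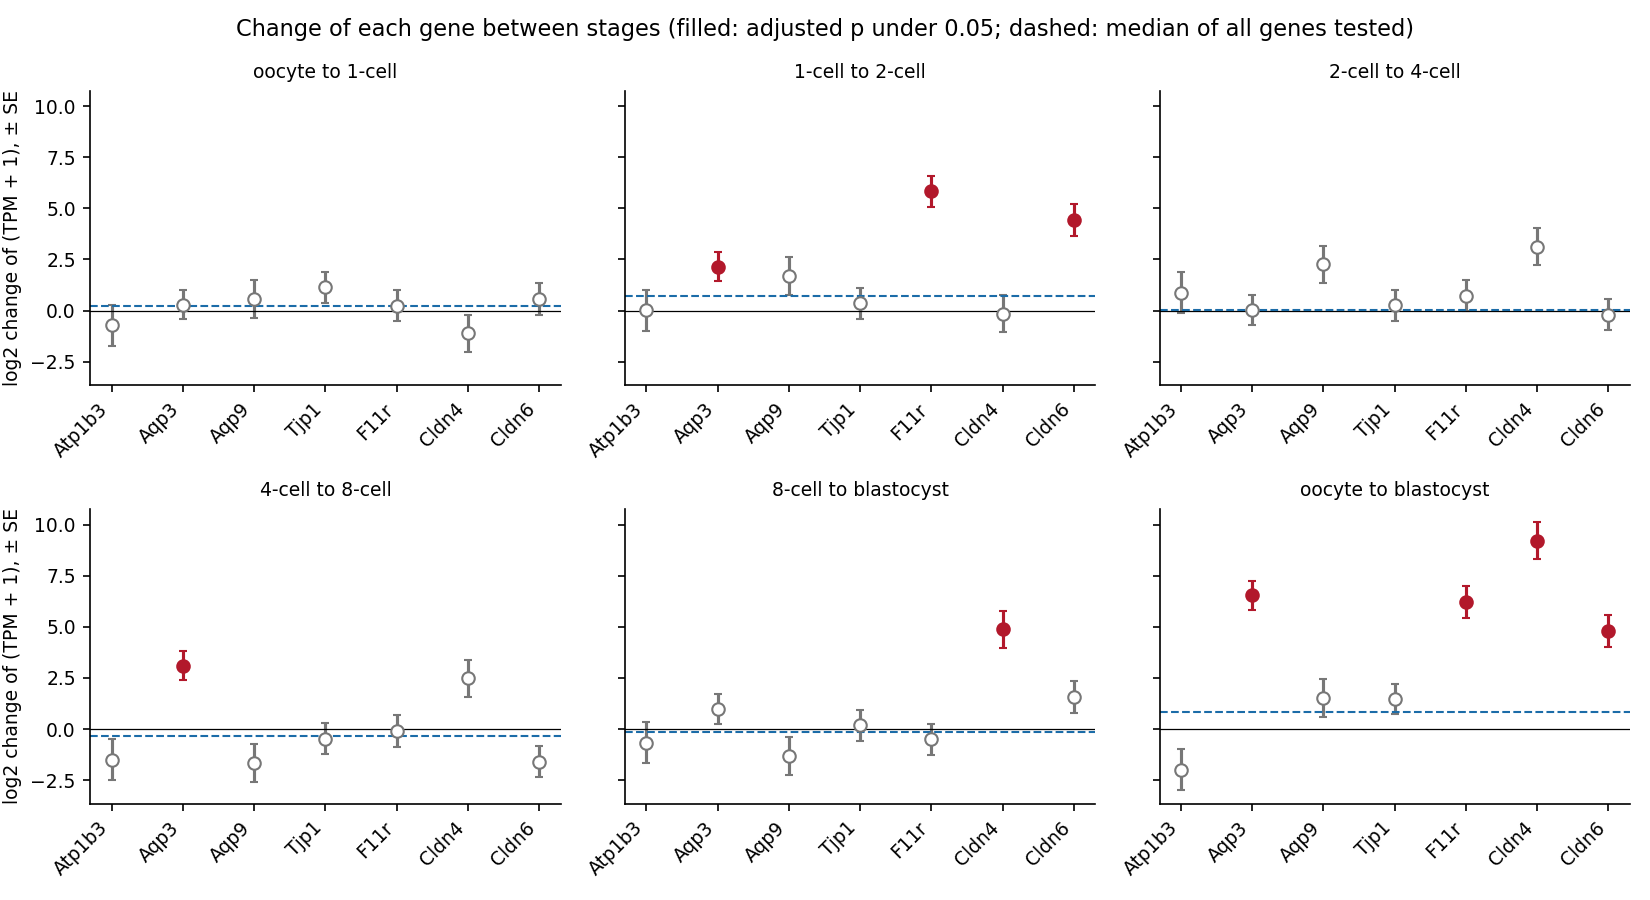
Log2 change of (TPM + 1), with its SE, of the 7 genes with a merged transcript in the 6 comparisons. Filled red points passed an adjusted p under 0.05 and open points did not, and the dashed line is the median over all 10000 genes. F11r at 5.84 and Cldn6 at 4.44 stand out from the 1-cell to the 2-cell stage, and Cldn4 at 4.88 from the 8-cell stage to the blastocyst.

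Promoter sequence was read for the genes that rose, because they did so at different steps. The windows are those of RefSeq (GRCm38.p6), from 250 bases before to 50 after the start. Aqp3 and Cldn4 were highest in the blastocyst, and F11r and Cldn6 rose at the 2-cell stage. The merged transcripts began 0 bases from the RefSeq start for Aqp3, 4 bases downstream for Cldn4 and Cldn6, and 75 bases upstream for F11r. Capitals mark 4 motifs searched on both strands. The TEAD motif was CATTCC and the KLF/SP motif GGGCGG, while GATA was searched as AGATAA, and AP-2 was searched as GCCNNNGGC.

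Cldn4, chr5:134946885-134947184, minus strand: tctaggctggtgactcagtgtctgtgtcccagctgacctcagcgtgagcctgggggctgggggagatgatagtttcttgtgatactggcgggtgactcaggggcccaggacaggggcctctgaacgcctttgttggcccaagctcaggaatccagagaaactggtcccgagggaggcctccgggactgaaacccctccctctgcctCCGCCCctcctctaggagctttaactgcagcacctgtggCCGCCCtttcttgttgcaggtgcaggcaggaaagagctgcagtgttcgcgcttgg
Aqp3, chr4:41098134-41098433, minus strand: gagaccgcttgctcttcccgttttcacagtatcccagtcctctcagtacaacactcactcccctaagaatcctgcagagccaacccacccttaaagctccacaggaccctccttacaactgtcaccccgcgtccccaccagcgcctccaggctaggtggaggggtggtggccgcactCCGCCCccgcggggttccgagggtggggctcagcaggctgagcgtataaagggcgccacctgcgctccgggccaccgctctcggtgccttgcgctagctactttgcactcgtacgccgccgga
F11r, chr1:171437311-171437610, plus strand: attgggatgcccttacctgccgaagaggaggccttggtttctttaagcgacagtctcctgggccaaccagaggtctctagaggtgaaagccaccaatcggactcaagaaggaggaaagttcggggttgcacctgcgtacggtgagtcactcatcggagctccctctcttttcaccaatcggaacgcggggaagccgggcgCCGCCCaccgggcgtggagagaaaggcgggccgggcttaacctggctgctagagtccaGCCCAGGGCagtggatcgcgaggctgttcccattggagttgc
Cldn6, chr17:23679115-23679414, plus strand: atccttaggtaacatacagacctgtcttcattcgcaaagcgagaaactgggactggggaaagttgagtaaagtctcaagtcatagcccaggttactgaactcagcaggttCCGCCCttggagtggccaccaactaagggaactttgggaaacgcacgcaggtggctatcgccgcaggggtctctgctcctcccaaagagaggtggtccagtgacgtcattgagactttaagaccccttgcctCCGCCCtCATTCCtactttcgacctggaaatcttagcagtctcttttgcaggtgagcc

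All 4 windows hold KLF/SP letters, as do those of Atp1b1 and Tjp1 and the Atp1b3 window with 76.0% GC. That is 7 of the 10 windows of the 8 genes, while 35.7% of all 32851 windows hold them. The other Atp1b3 window, with 74.7% GC, holds no KLF/SP letters. These letters are all G or C, and the median GC content of all windows was 52.7%. The Cldn6 window had 52.3%, and the others with KLF/SP letters had 60.3% to 76.0%. The part of GC content in the count was not tested. Of the 10 windows, 3 hold the AP-2 letters (Atp1b3, Tjp1 and F11r), against 16.6% of all, 1 holds TEAD letters (Cldn6), against 14.7%, and 0 hold GATA letters, against 11.2%. Both Aqp9 windows hold none of the 4 motifs and have the lowest GC content of the 10 (41.3% and 43.7%), and the Atp1b3 windows have the highest (74.7% and 76.0%). A match is a run of letters and not a bound site.

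Cldn4 and Cldn6 were also set against the other claudins. Of 10 claudins with a merged transcript, the leading one differed between stages. Cldn8, a claudin of the kidney tubule, held 66.7% and 13.3% of summed claudin TPM in oocytes and 65.4% and 83.6% in 1-cell embryos. Cldn15 led in oocyte replicate 2, with 56.5%. Cldn7 held 61.3% and 59.6% in 4-cell embryos and 69.4% and 57.4% in 8-cell embryos. Cldn4 held 16.3% and 7.03% in 4-cell embryos, 26.5% and 38.8% in 8-cell embryos, and 84.5% and 87.6% in the blastocyst. The share of Cldn6 was highest at the 2-cell and 4-cell stages, from 11.9% to 57.2%, and was 2.24% and 0.458% in the blastocyst. The blastocyst is thus the only stage in which Cldn4 held the largest share in both libraries.

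**Figure D4:**
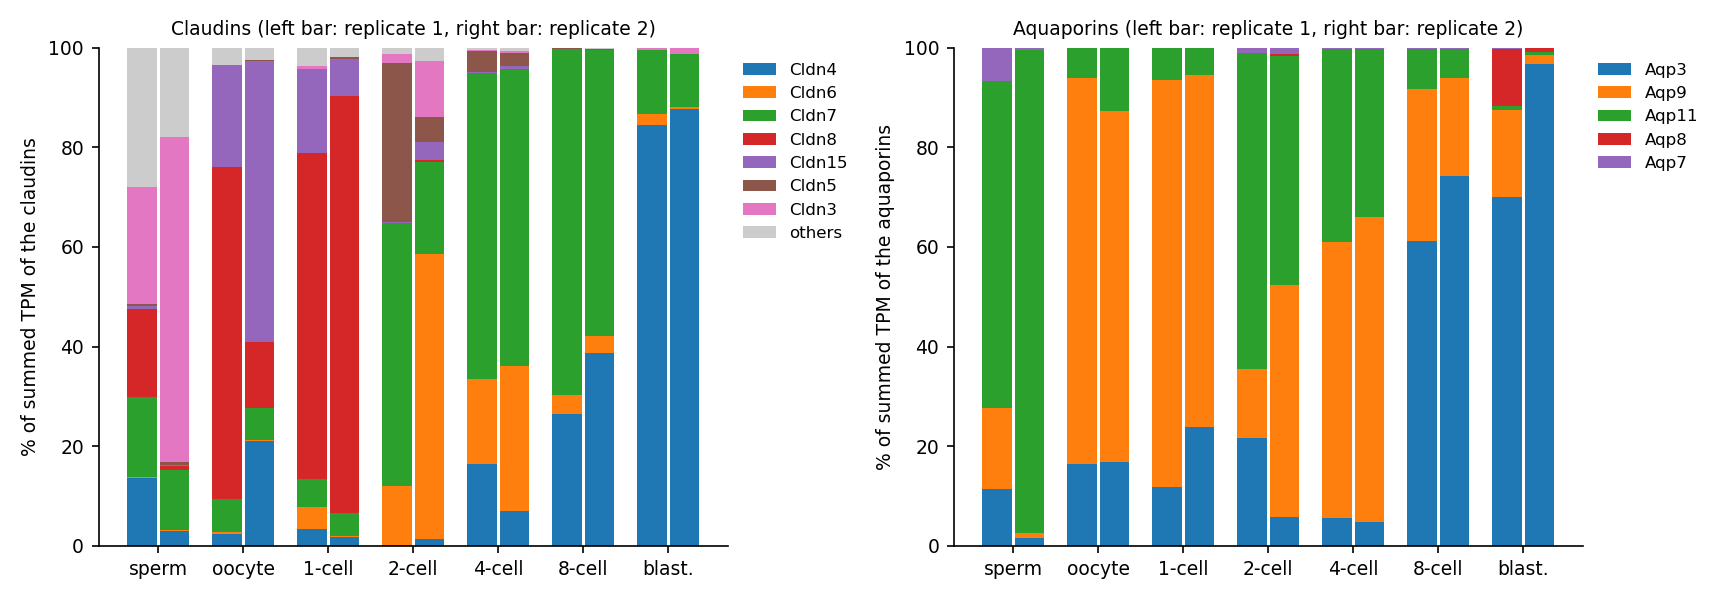
Share of each gene in the summed TPM of the 10 claudins (left) and 5 aquaporins (right) with a merged transcript, in %, with 1 bar per library. Cldn4 (blue, left) takes 84.5% and 87.6% in the blastocyst, and Aqp3 (blue, right) takes 70.0% and 96.7%.

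Among the 5 aquaporins with a merged transcript, Aqp9 held 70.6% to 81.8% in the 4 oocyte and 1-cell libraries and 55.3% and 61.2% in 4-cell embryos. Aqp3 held 61.1% and 74.2% in 8-cell embryos and 70.0% and 96.7% in the blastocyst. Aqp11, an intracellular aquaporin, held 63.4% and 46.2% in 2-cell embryos and 0.839% and 0.601% in the blastocyst. It rose by 4.86 ± 0.60 from the 1-cell to the 2-cell stage (adjusted p = 0.000128) and fell by 2.72 ± 0.60 from the 4-cell to the 8-cell stage (adjusted p = 0.0361). Aqp8 was listed at 0 in all 4 oocyte and 8-cell libraries and had 18.7 and 2.24 TPM in the blastocyst. It reached 1 TPM in those 2 libraries alone and so passed the filter only through them.

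The other pump and junction genes were taken from lists of 87 genes besides the 8. Of these 42 had a merged transcript and 38 were tested. From oocyte to blastocyst 15 rose (35.4% of all genes tested did), 7 fell (18% of all) and 16 did not pass, with a median change of 1.23 against 0.82 over all genes. From the 1-cell to the 2-cell stage 10 rose, where 26.1% of all genes did, and 1 fell, where 6.2% did. Under quantile normalization 5 rose and 9 fell, and with 1 library left out 4 to 13 rose and 1 to 8 fell. From the 8-cell stage to the blastocyst 5 rose (Slc9a3r1, Cldn3, Jam2, Aqp8 and Dsg2), where 1.51% of all genes did, and 1 fell (Slc12a2), where 1.49% did. With 1 library left out 0 to 9 rose, the 0 without 8-cell replicate 1. Aqp8 is counted among the 15 and the 5, although it passed the filter only through the blastocyst. Cldn14 is counted among the 7 that fell, although it passed the filter only with the oocyte libraries.

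Of 3 tested Na,K-ATPase and FXYD genes, Fxyd4 (4.10 ± 0.80, adjusted p = 0.000721) and Fxyd5 (3.77 ± 1.25, adjusted p = 0.0198), whose products regulate the pump, rose from oocyte to blastocyst. Of 4 ion transporter genes only Slc9a3r1, the scaffold NHERF1, rose over that span, by 5.98 ± 0.72 (adjusted p = 2.00e-05). Slc12a2, the Na-K-Cl cotransporter NKCC1, fell by 3.33 ± 0.75 from the 8-cell stage to the blastocyst (adjusted p = 0.0268).

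Of 6 other claudins tested, Cldn7 (6.63 ± 0.73, adjusted p = 1.12e-05) and Cldn3 (4.56 ± 0.78, adjusted p = 0.000284) rose from oocyte to blastocyst, and Cldn8 (-3.68), Cldn15 (-3.84) and Cldn14 (-0.98, adjusted p = 0.0468) fell. Cldn14 reached 1 TPM only in the oocyte libraries (1.08 and 1.05) and in 1-cell replicate 1 (1.15), and so passed the filter only with the oocyte libraries. Cldn7 had 2.36 and 2.68 TPM in oocytes and 245.3 and 493.1 in the blastocyst, with no overlap. Of 13 other tight junction genes 6 rose and 2 fell. Tjp3, or ZO-3, was listed at 0 in both oocyte libraries and had 23.8 and 97.6 TPM in the blastocyst (adjusted p = 2.55e-05). The coxsackievirus and adenovirus receptor gene Cxadr rose by 3.54 ± 0.87 (adjusted p = 0.00365), and occludin (Ocln) by 2.80 ± 0.70 (adjusted p = 0.00409). Patj, a polarity scaffold, fell by 2.93 ± 0.85 (adjusted p = 0.00967), and Jam3 by 2.19 ± 0.72 (adjusted p = 0.0199). Cgn, or cingulin, did not pass (0.30 ± 1.18, adjusted p = 0.848).

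Of 10 adherens junction and desmosome genes 3 rose and 2 fell over the same span. The desmosome genes Dsp (4.65 ± 0.90, adjusted p = 0.000695) and Dsg2 (4.01 ± 0.54, adjusted p = 4.60e-05) and the nectin gene Nectin2 (4.51 ± 0.76, adjusted p = 0.000245) rose. Nectin3 fell by 5.23 ± 0.91 (adjusted p = 0.000312), and Afdn, which encodes the nectin partner afadin, by 1.95 ± 0.75 (adjusted p = 0.0406). Cdh1, or E-cadherin, did not pass (1.33 ± 0.90, adjusted p = 0.227). The only cumulus cell marker of 8 with a merged transcript, Amhr2, stood at 0.206 and 0 TPM in the oocyte libraries and at 99.2 and 107.3 TPM in the 4-cell libraries.

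**Figure D5:**
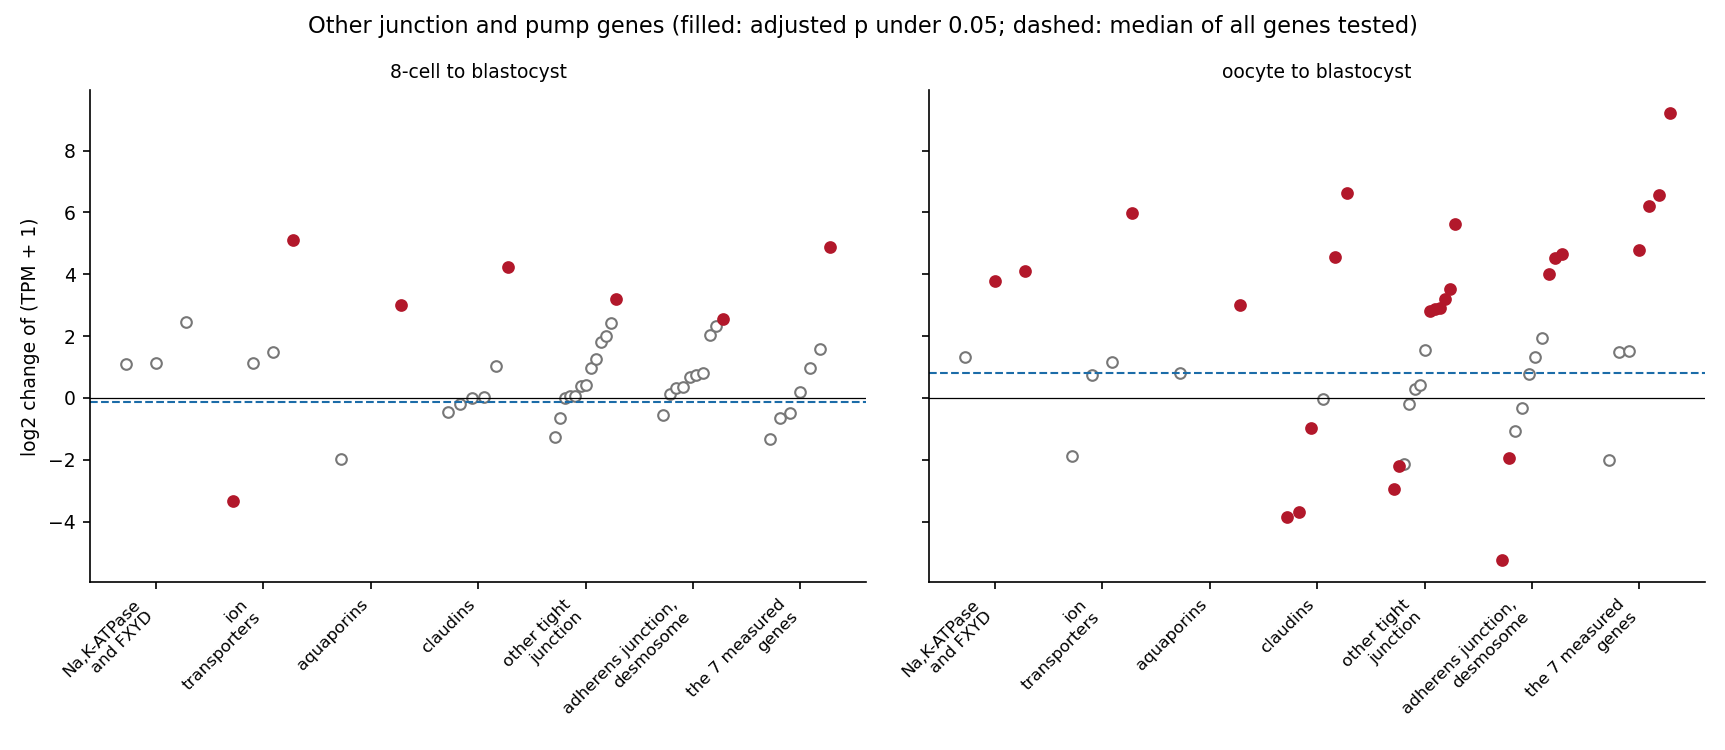
Log2 change of (TPM + 1) of the 38 other pump and junction genes by list and, at the right of each panel, of the 7 genes, from the 8-cell stage to the blastocyst (left) and from oocyte to blastocyst (right). Filled red points passed an adjusted p under 0.05 and open points did not, and the dashed line is the median over all genes. Over the longer span 15 of the 38 rose and 7 fell, and 4 of the 7 rose and none fell.

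For each of the 7 genes the tested genes with the most similar course were found, by Pearson r of log2(TPM + 1) across the same 12 libraries. These are descriptions over libraries that share stages. They were Hexa (0.986) and Grtp1 (0.983) for Aqp3, Nsa2 (0.991) and Riok2 (0.988) for Aqp9, Gart (0.994) and Kpna4 (0.989) for F11r, and Npr1 (0.979) and Tmem177 (0.973) for Cldn6. For Cldn4 they were 2610528J11Rik (0.979) and Rpn1 (0.967), for Atp1b3 Ddit4 (0.948) and Ifrd1 (0.911), and for Tjp1 Gm49359 (0.898) and Gm14440 (0.897). Among the 7 themselves the largest r were 0.887 for F11r with Cldn6 and 0.858 for Aqp3 with Cldn4. Atp1b3 had a negative r with each of the other 6, from -0.19 to -0.48.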

How the data were processed

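The members and gene lists were chosen with earlier results of these data known. Per the study's methods, Smart-seq2 cDNA was sequenced, short reads were trimmed with TrimGalore, and long-read transcripts were built with Iso-seq3, mapped by GMAP to mm10 and merged with Cuffmerge. The submitters' processing notes name GSNAP, STAR, Cufflinks and Salmon. The authors computed the deposited TPM values with Salmon, both for the merged transcripts and for the long-read transcripts of each stage. TPM keeps no count, so no counting interval is given, and the read totals that the study lists were not used here.

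Gene values are summed TPM of the assigned transcripts. Transcripts were assigned by most same-strand exonic bases shared with GENCODE vM21 (the authors used another release). limma 3.58.1 in R 4.3.3 (lmFit, contrasts.fit, eBayes with a trend) was fitted to log2(TPM + 1) over 12 libraries with stage as the only term, for features that reached 1 TPM in 2 or more libraries. p-values were adjusted by Benjamini-Hochberg within a comparison, over all 10000 genes or 20250 transcripts. The 6 comparisons share libraries. Replicates are batches of pooled cells, and their number per stage (2) limits precision. The fit was tested on simulated data. Titles and file names number the 8-cell replicates in opposite order, and the titles were followed. Sperm was described, not tested.

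The text gives all 8 genes in full, then Ocln, Cgn, Tjp3, Cldn7 and Cdh1, the listed genes with the largest called changes from oocyte to blastocyst (2 per list and direction), the 2 genes most correlated with each of the 7 with a merged value, and transcripts with at least 10% of their gene's TPM. Alternatives were a pseudocount of 0.1, no filter, a mean TPM of at least 5, quantile normalization, only the 4 libraries compared, a replicate block, spread weighted by stage, a shared intron for assignment, and each library left out. Replicate numbers were not taken as pairs across stages. Of 15 pairs of stages, 5 had a correlation of replicate differences over 0.1, a count that cannot settle whether the replicates are paired. Some genes of the lists are not reported here.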

Additional observations from a re-analysis of the deposited data

Results flagged for a closer look

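Atp1b1, the β1 subunit gene, is flagged because its signal lies in values that entered no comparison above. Over the long-read transcripts of each stage alone, its mean of 2 libraries was 161.3 TPM in sperm, 94.1 at the 2-cell stage, 22.1 at the 8-cell stage and 109.0 in the blastocyst. The gene has no transcript in the merged catalogue.

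The sperm libraries entered no comparison, and 4 of the 7 genes had more RNA in both sperm libraries than in either oocyte library. The sperm means were 12.1 TPM for Aqp3, 50.5 for F11r, 20.4 for Cldn4 and 1.09 for Cldn6. Epididymal and somatic markers summed to 6128 and 896.7 TPM in the same libraries, and their part in these levels was not tested.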

How the results depend on the processing

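TPM keeps no count, and 2 libraries a stage limit every test. Of the member changes under settings other than leaving out a library, 308 kept their side of the threshold and direction, 7 lost and 9 gained a call, and 10 changed sign, none of them called. Without any one library, 456 were kept, 17 lost and 5 gained a call, and 26 changed sign, none of them called. The cause of these shifts was not tested.

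Of the members, quantile normalization gave 1 rise from 2-cell to 4-cell (0 in the reported fit). From 4-cell to 8-cell, the number of rises went from 1 to 0 with a pseudocount of 0.1, no filter or the replicate block. It went to 2 with only the 4 libraries compared or a spread weighted by stage, which also gave 3 falls each. Over all genes, the 4 libraries gave 1007 rises and 2475 falls among 9176 tested. The weighted spread gave 1100 and 2821 among 10000, and the reported fit 77 and 90. Member transcripts that rose from 8-cell to blastocyst went from 2 to 0 with a pseudocount of 0.1 or the 4 libraries, and to 1 with a mean TPM of at least 5. The 2 include the spliced Cldn4 form, which passed the filter only through the blastocyst. Quantile normalization or the 4 libraries gave 1 transcript that fell from oocyte to blastocyst.

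Of the other pump and junction genes, 1-cell to 2-cell rises went from 10 to 5 under quantile normalization or weighted spread, and falls from 1 to 2 with a mean TPM of at least 5 and to 9 under quantile normalization. From 2-cell to 4-cell, rises went from 0 to 1 under quantile normalization, and falls from 2 to 0 (pseudocount 0.1, 4 libraries, weighted spread) or 1 (block). From 4-cell to 8-cell, rises went from 0 to 9 (4 libraries) or 10 (weighted spread), and falls from 1 to 0 (pseudocount 0.1, block) or 8 (4 libraries, weighted spread). The counts over all genes with the 4 libraries and with the weighted spread, given above, were larger too. Rises from 8-cell to blastocyst went from 5 to 3 with a pseudocount of 0.1, a mean TPM of at least 5 or the 4 libraries.

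With 1 library left out, members that rose numbered 0 to 2 (2-cell to 4-cell), 0 to 1 (4-cell to 8-cell) and 0 to 1 (8-cell to blastocyst), and 0 to 1 fell from oocyte to blastocyst. Member transcripts that rose from 8-cell to blastocyst numbered 0 to 2, and those that fell from oocyte to blastocyst 0 to 1. The other genes that rose numbered 0 to 1, 4 to 13, 0 to 2 and 0 to 9 (oocyte to 1-cell, 1-cell to 2-cell, 2-cell to 4-cell, 8-cell to blastocyst), and those that fell 1 to 8, 0 to 5, 0 to 2, 0 to 2 and 3 to 9 (1-cell to 2-cell, 2-cell to 4-cell, 4-cell to 8-cell, 8-cell to blastocyst, oocyte to blastocyst).

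Sign changes under quantile normalization were Atp1b3 (-0.29) and Tjp1 (-0.44) from 1-cell to 2-cell, Aqp3 (-0.24), Aqp9 (-0.076) and F11r (-0.16) from oocyte to 1-cell, and F11r (0.050) from 4-cell to 8-cell. With a shared intron required, Tjp1 had -0.37, -1.57, 1.05 and -0.27 over the 4 steps from 1-cell to blastocyst. Without one library, changes from oocyte to 1-cell ranged from -1.86 to 0.40 (Atp1b3), -0.0096 to 0.58 (Aqp3), -0.22 to 1.32 (Aqp9), -2.32 to 0.084 (Cldn4) and -0.060 to 1.18 (Cldn6). From 1-cell to 2-cell they ranged from -1.09 to 1.099 (Atp1b3), -0.12 to 0.85 (Tjp1) and -0.64 to 0.34 (Cldn4), and from 2-cell to 4-cell from -0.22 to 1.97 (Atp1b3), -0.65 to 0.72 (Aqp3), -0.030 to 0.55 (Tjp1), -0.12 to 1.59 (F11r) and -1.13 to 0.74 (Cldn6). From 4-cell to 8-cell they ranged from -1.27 to 0.33 (Tjp1) and -0.69 to 0.50 (F11r), and from 8-cell to blastocyst from -0.62 to 0.98 (Tjp1) and -1.100 to 0.10 (F11r).

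Replicate numbers were not taken as pairs, and whether the samples are paired was not settled. Correlations of replicate differences between stages ran from -0.55 to 0.48, with 5 of 15 over 0.1. The signs of those with the 8-cell stage depend on the order taken for its replicates. With the replicate block, all genes that rose numbered 42 and 46 (158 and 77 without it) and those that fell 45 and 43 (182 and 90) from 2-cell to 4-cell and 4-cell to 8-cell, and 1 rose and 0 fell from oocyte to 1-cell (33 and 5).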
